A study of Saccharomyces cerevisiae with 4 samples.

Results

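The genes described here take up iron at the yeast cell surface or move it between compartments. They are FET3, FTR1, CCC2, FIT2, FIT3, ARN1, SIT1, FTH1, MRS4 and AFT1, 10 of the 7127 features in the count files, and they were chosen by systematic name and function, not by their counts. All 10 were detected in every library and were among the 6197 genes tested. Messenger RNA came from 2 groups of Saccharomyces cerevisiae, with 2 libraries each. The deletion group was BY4741 in which TOR1 (YJR066W), a kinase of TOR complex 1, had been replaced by the kanMX4 cassette. The wild type was BY4741 itself, a haploid MATa strain of the S288C background, and both strains carry mutations in HIS3, LEU2, MET15 and URA3. Both were grown at 30 °C in minimal medium with 2% dextrose, ammonium sulfate and the required supplements and harvested in exponential growth, at an optical density of 0.5 to 0.7, and each sample title also gives a time of 4 h. The comparison addresses the effect of losing TOR1 on mRNA levels. The labels name a single deletion strain and do not say that libraries came from separate cultures, so the spread behind each p-value may be technical.

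Yeast takes up scarce iron by a reductive route, in which the multicopper oxidase Fet3 and the permease Ftr1 work as a complex in the plasma membrane, and by transporters of iron bound to siderophores, small chelators that microbes release. Inside the cell, iron is stored in the vacuole and used in the mitochondria for heme and iron-sulfur clusters. The transcription factor Aft1 activates many of these genes when iron is low, through promoter elements with the core TGCACCC.

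The promoters are shown first because the genes differ in the motif they hold. The letters TGCACCC, searched on both strands, were found within the 300 bases before the start codon of 7 of the 10 genes: FET3, FTR1, CCC2, FIT2, FIT3, ARN1 and SIT1. Of 6001 protein-coding genes, 80 (1.33%) held them in that window. The shorter GCACCC, which lies within the first motif, was found before 9 of the 10 genes, against 4.07% of all genes, and AFT1 was the gene with no match to either. FTH1 and MRS4 had only the shorter form. The distances to the start codon, counted from the motif base farthest from it, were 251 bases in FET3, 175 in FTR1, 188 in SIT1 and 260 in ARN1, while CCC2 had a pair at 290 and 242, FIT3 a pair at 285 and 184, and FIT2 had 3 at 266, 249 and 131. A match describes letters only and is not evidence of binding. CCC2, FIT3 and ARN1, whose windows are not shown, hold the full motif and varied little between the deletion libraries. Deletion library 2 stood 1.29-fold, 1.07-fold and 1.08-fold above library 1 for these genes. The windows shown, for the 4 surface genes whose levels varied most between the deletion libraries and for the vacuolar and mitochondrial genes, are chrXIII:388522-388821 (plus strand), chrV:461741-462040 (minus strand), chrXV:1059231-1059530 (plus strand), chrV:27357-27656 (plus strand), chrII:634846-635145 (plus strand) and chrXI:533465-533764 (minus strand) of the RefSeq R64 assembly. They are written 5′ to 3′ toward the start codon, with the motif or its reverse complement in capitals.
FET3: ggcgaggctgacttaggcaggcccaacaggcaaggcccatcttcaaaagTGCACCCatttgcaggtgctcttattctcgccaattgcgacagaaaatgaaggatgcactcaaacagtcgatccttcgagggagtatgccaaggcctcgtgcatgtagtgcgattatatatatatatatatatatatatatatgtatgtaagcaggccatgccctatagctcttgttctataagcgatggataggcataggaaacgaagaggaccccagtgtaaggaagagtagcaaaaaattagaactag
FTR1: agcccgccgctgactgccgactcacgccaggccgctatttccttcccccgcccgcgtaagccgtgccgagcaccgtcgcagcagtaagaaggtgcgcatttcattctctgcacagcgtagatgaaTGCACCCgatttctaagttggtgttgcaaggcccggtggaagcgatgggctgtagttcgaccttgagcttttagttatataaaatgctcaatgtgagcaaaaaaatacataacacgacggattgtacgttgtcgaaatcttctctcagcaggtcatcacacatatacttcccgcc
FIT2: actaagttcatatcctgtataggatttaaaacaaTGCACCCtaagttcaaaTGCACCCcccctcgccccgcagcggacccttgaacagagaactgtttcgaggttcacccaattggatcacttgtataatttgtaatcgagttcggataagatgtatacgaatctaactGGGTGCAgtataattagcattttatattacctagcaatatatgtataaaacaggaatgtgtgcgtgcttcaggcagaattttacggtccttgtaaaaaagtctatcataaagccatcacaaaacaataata
SIT1: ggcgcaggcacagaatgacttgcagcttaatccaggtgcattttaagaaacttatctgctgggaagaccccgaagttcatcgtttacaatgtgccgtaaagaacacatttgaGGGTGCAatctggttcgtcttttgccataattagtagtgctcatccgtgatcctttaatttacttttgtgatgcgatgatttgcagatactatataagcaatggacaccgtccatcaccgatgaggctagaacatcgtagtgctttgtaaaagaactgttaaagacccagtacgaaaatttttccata
FTH1: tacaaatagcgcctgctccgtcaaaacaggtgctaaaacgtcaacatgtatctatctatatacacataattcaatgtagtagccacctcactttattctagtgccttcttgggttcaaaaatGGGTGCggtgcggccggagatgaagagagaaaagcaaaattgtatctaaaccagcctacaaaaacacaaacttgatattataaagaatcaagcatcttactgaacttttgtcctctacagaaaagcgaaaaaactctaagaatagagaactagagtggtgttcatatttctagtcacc
MRS4: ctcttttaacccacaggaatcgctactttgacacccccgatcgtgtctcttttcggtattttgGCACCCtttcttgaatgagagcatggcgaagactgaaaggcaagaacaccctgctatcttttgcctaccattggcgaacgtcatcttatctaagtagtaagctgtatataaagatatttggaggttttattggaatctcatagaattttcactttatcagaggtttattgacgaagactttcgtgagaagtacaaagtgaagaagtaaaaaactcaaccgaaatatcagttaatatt

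Library totals ranged from 8060480 to 10244377 counts in the deletion and from 9623963 to 14446057 in the wild type, and the floor for a count of 0, taken as 3 counts, was at most 0.372 CPM (counts scaled to a common library size). TOR1 had 0 and 1 counts in the deletion libraries, against 635 and 357 in the wild type. LEU2 and URA3 had at most 1 count per library, and MET17, also called MET15, at most 3, while HIS3 was read in every library. The MATa genes STE2, MFA1, MFA2 and BAR1 had at least 2835 counts in every library, and the MATalpha genes STE3, MF(ALPHA)1 and MF(ALPHA)2 at most 179. Of 6197 genes tested, 51.8% were called, 26.9% higher and 24.9% lower in the deletion, by the quasi-likelihood test of edgeR with Benjamini-Hochberg adjusted p below 0.05. Without wild-type library 1 or 2 the calls numbered 1960 or 2012, against 3208 with all libraries. Higher genes made up 51.9% of calls with TMM scaling, 33.6% when scaled by library totals and 30.7% by upper quartile factors, with shifts of -0.33 and -0.39 in the median change. CPM below are TMM-normalised, means carry the SD of 2 libraries, and a change is the log2 ratio of deletion to wild type with its SE.

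Of the iron genes, 5 were higher in the tor1 deletion and none was called lower. These were the vacuolar and mitochondrial transporter genes FTH1 and MRS4, the copper pump gene CCC2, and at the cell surface FET3 and SIT1. The other 5, FTR1, FIT2, FIT3, ARN1 and AFT1, did not pass. Calls among the 10 moved when either deletion library was left out. Without deletion library 2 the changes of FTR1 and FIT2 turned negative (-0.43 and -0.13). The 5 calls of 10 in the upward direction stand beside 26.9% of all tested genes called higher, and the median log2 fold change was 1.06 over the 10 genes and -0.020 over all tested genes. The strains' libraries did not overlap for 8 of the 10, beside 78.9% of all tested genes, so separation of the strains was as common among the iron genes as elsewhere.

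**Figure D1:**
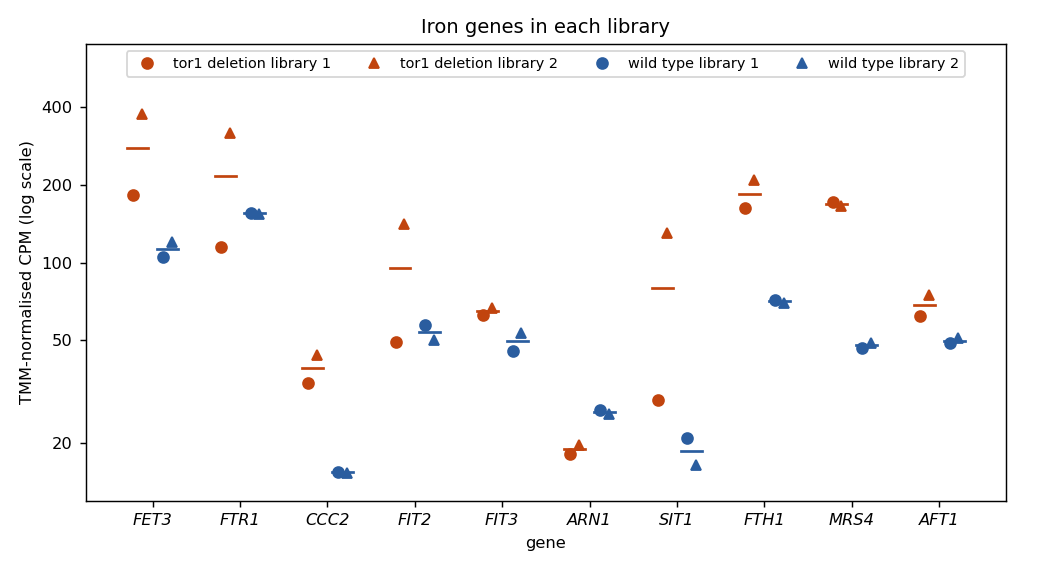
TMM-normalised CPM (log axis) of the 10 iron genes in each library, tor1 deletion in red and wild type in blue, with circles for library 1, triangles for library 2 and a bar at the mean of 2. FTH1, MRS4 and CCC2 lie well above the wild type in both deletion libraries, while FTR1, FIT2 and SIT1 are spread more widely between the deletion libraries.

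At the cell surface, FET3 (YMR058W, chromosome XIII, 388822 to 390732, plus strand, a single coding exon as in all 10 genes) encodes the ferroxidase of the reductive uptake complex. It had 182 and 374 CPM in deletion libraries 1 and 2, against 106 and 120.0 CPM in wild-type libraries 1 and 2. Neither deletion library overlapped the wild type, and library 2 was the farther off. FET3 rose by 1.30 ± 0.33, a 2.47-fold change (edgeR quasi-likelihood adjusted p = 0.0143), and the change was 0.69 without deletion library 2. FTR1 (YER145C, chromosome V, 460526 to 461740, minus strand) encodes the permease that works with Fet3. Its levels were 115 and 316 CPM in the deletion and 156 and 154 CPM in the wild type. The groups overlapped, since deletion library 1 lay below and library 2 above the wild type, and the change of 0.48 ± 0.41 did not pass (edgeR adjusted p = 0.362). Its direction turned on which deletion library was kept. FTR1 passed as lower without deletion library 2 (-0.43, edgeR adjusted p = 0.00837) and as higher without deletion library 1 (1.04, edgeR adjusted p = 7.67e-12).

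CCC2 (YDR270W, chromosome IV, 1005675 to 1008689, plus strand) encodes a copper-transporting ATPase that supplies copper to Fet3 in the secretory pathway. It was measured at 34.3 and 44.1 CPM in the deletion libraries and at 15.6 and 15.3 CPM in the wild type. The rise of 1.35 ± 0.22, or 2.54-fold, exceeded the spread between libraries (edgeR adjusted p = 0.00263). Thus the ferroxidase gene and the copper pump gene were called higher, and the permease gene was not.

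FIT2 and FIT3 encode mannoproteins that are held in the cell wall and help retain siderophore iron. They are neighbours that point toward each other, FIT2 (YOR382W) at 1059531 to 1059992 on the plus strand of chromosome XV and FIT3 (YOR383C) at 1060441 to 1061055 on the minus strand, with 448 bases between them. FIT2 had 49.1 and 141 CPM in the deletion, against 57.3 and 50.1 CPM in the wild type. The groups overlapped, with deletion library 1 below both wild-type libraries and library 2 well above them. FIT2 did not pass at 0.83 ± 0.43 (edgeR adjusted p = 0.147), and the change was -0.13 without deletion library 2 and 1.40, called higher, without deletion library 1. FIT3 had 62.6 and 66.9 CPM in the deletion and 45.5 and 53.6 CPM in the wild type, which did not overlap. Its change of 0.39 ± 0.18 did not pass (edgeR adjusted p = 0.106) and was -0.0071 with upper quartile factors. It was called higher when either deletion library was left out (0.45 without library 1 and 0.35 without library 2). Deletion library 2 stood 2.87-fold above library 1 for FIT2 and 1.07-fold above it for FIT3, although both promoter windows hold the full motif.

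ARN1 and SIT1, also called ARN3, encode transporters of siderophore-bound iron. SIT1 (YEL065W, chromosome V, 27657 to 29543, plus strand) had 29.4 and 130.4 CPM in the deletion, against 21.0 and 16.5 CPM in the wild type. Both deletion libraries were higher, library 1 by little and library 2 by far. SIT1 rose by 2.10 ± 0.61, the largest change among the 10 genes and the one with the largest error (4.28-fold, edgeR adjusted p = 0.0245). The change was 0.65 without deletion library 2, and SIT1 missed the threshold with DESeq2 (adjusted p = 0.0599), limma-voom (0.0521) and the authors' table (0.0507). ARN1 (YHL040C, chromosome VIII, 19088 to 20971, minus strand) had 18.2 and 19.8 CPM in the deletion, against 27.0 and 26.0 CPM in the wild type. It was the only gene of the 10 whose deletion libraries both lay below the wild type. Its change of -0.48 ± 0.21 did not pass (edgeR adjusted p = 0.0881), and it passed as lower when scaled by library totals (-0.80) or by upper quartile factors (-0.87), and also without deletion library 2 (-0.54, edgeR adjusted p = 0.0238). The ratio of SIT1 to ARN1 counts, which does not depend on scaling, was 1.61 and 6.59 in the deletion libraries and 0.777 and 0.632 in the wild type.

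Inside the cell, FTH1 (YBR207W, chromosome II, 635146 to 636543, plus strand) encodes the Ftr1-related permease of the vacuolar membrane, which works with the oxidase Fet5 to release stored iron. It had 162 and 208 CPM in the deletion, against 71.7 and 69.9 CPM in the wild type. FTH1 rose by 1.39 ± 0.19, or 2.61-fold (edgeR adjusted p = 0.00135). MRS4 (YKR052C, chromosome XI, 532550 to 533464, minus strand) encodes a mitochondrial inner membrane carrier that imports iron. It had 172 and 166 CPM in the deletion libraries and 46.7 and 49.0 CPM in the wild type. The strains were far apart and the libraries of each strain close together, so MRS4 had the smallest SE and the smallest p of the 10 (1.82 ± 0.16, 3.53-fold, edgeR adjusted p = 0.000306). FTH1, MRS4 and CCC2 stayed called under every alternative run, with changes of 0.99 to 1.56, 1.42 to 1.86 and 0.95 to 1.52.

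AFT1 (YGL071W, chromosome VII, 372012 to 374084, plus strand) encodes the iron-responsive activator itself, whose activity is known to be set mainly by its location in the cell and not by its mRNA level. It had 62.2 and 75.0 CPM in the deletion, against 48.7 and 51.1 CPM in the wild type. The deletion libraries lay slightly above the wild type, and the change of 0.46 ± 0.18 did not pass (edgeR adjusted p = 0.0665). The change of AFT1 was 0.067 with upper quartile factors and 0.14 with library totals. It was 0.60 without deletion library 1 and 0.32 without deletion library 2, where the remaining one is assumed to vary like the wild-type libraries.

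**Figure D2:**
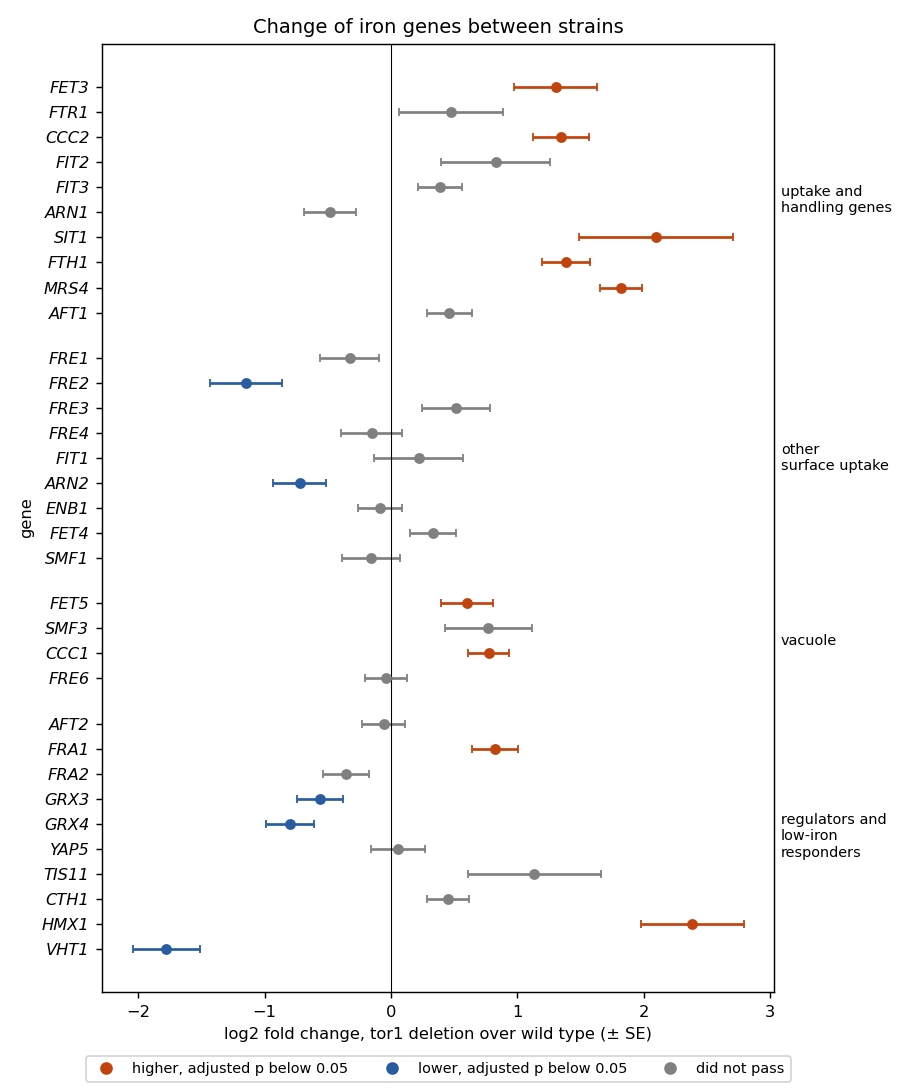
Log2 fold change of tor1 deletion over wild type with its SE, for the 10 iron genes at the top and for 3 lists of related genes below. Red points passed as higher, blue points passed as lower and grey points did not pass. FET3, CCC2, SIT1, FTH1, MRS4 and HMX1 lie farthest to the right, with errors clear of 0. In the list of other surface uptake genes most points lie near 0, apart from FRE2 and ARN2 on the left.

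Set side by side, the vacuolar gene FTH1 and the mitochondrial gene MRS4 differed from the surface genes in how evenly they changed. This describes the genes named and not their compartments. In the wider lists below, 2 of 4 vacuole genes were called higher, and of 18 mitochondrial genes 3 were higher and 3 lower. FTH1 and MRS4 were both called higher, with a median of 1.60, while 2 of the 6 surface and cell wall genes (FET3, FTR1, FIT2, FIT3, ARN1 and SIT1) were called higher, with a median of 0.65. The surface count is near the 26.9% of all tested genes called higher. The difference of these medians was -0.95 and kept its sign under every alternative, from -0.47 without deletion library 1 to -1.41 without deletion library 2. The 6 surface genes together took 456 and 1048 CPM in the deletion, against 412 and 421 CPM in the wild type, and FTH1 and MRS4 together 334 and 374 CPM in the deletion and 118 and 119 CPM in the wild type. The surface sum therefore hardly moved in deletion library 1, and the internal sum was higher in both. Within a library, the surface sum was 1.37 and 2.80 times the internal sum in the deletion, against 3.48 and 3.54 times in the wild type. For the related permeases, FTR1 was counted 0.708 and 1.52 times as often as FTH1 in the deletion, against 2.17 and 2.21 times in the wild type. FET3 was counted 1.58 and 1.18 times as often as its partner FTR1 in the deletion, against 0.678 and 0.777 times in the wild type. None of these ratios overlapped between strains, but with 2 libraries a strain an exact two-sided permutation test cannot go below p = 0.333.

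**Figure D3:**
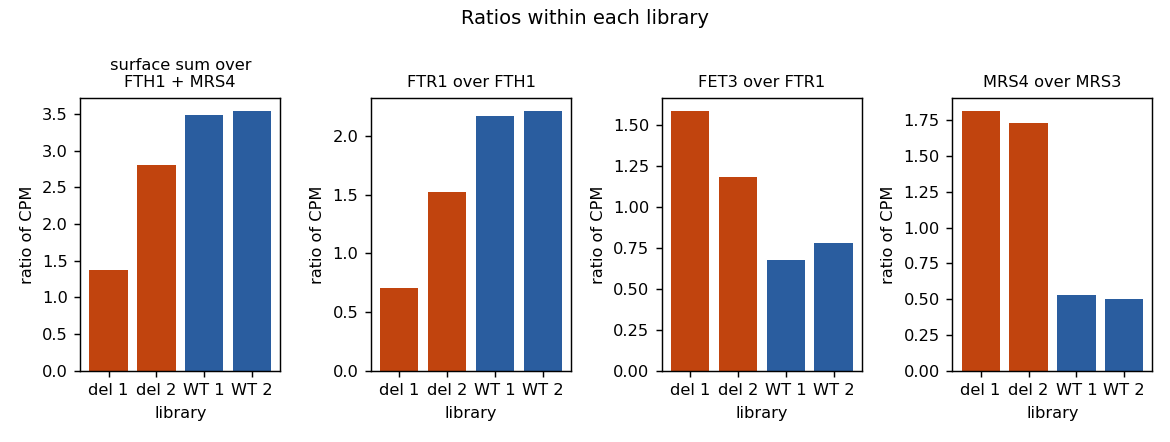
Ratios of CPM within each library, with deletion libraries (del 1 and del 2, red) left of wild-type libraries (WT 1 and WT 2, blue) and 1 bar per library. The surface sum over the internal sum and FTR1 over FTH1 are lower in both deletion libraries, whereas FET3 over FTR1 and MRS4 over MRS3 are higher in both.

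Several surface genes differed widely between the deletion libraries. Library 2 stood more than 2-fold above library 1 for 4 of the 10 genes, FET3 (2.06-fold), FTR1 (2.75-fold), FIT2 (2.87-fold) and SIT1 (4.43-fold), beside 2.9% of all tested genes. In absolute size, the gap exceeded that of 93.3% of tested genes for FET3, 97.2% for FTR1, 97.6% for FIT2 and 99.0% for SIT1. These shares count gaps in either direction, unlike the 2.9%. The other 6 genes were within 1.29-fold of each other, from 0.966-fold for MRS4 to 1.29-fold for CCC2. In the wild type all 10 genes lay between 0.784-fold and 1.18-fold, library 2 over library 1. The deletion libraries as a whole correlated at 0.974 across genes in log2 CPM and the wild-type libraries at 0.992, where genes are not independent replicates. In the related lists below, SMF3 (2.22-fold), TIS11 (3.63-fold) and HMX1 (2.51-fold) were also more than 2-fold higher in deletion library 2. They were 1 of 4 genes of the vacuole list and 2 of 10 tested regulators and responders, and the other related lists had 0. YAH1 (0.293-fold) and CIA2 (0.464-fold), of the mitochondrial and cytosolic cluster lists, were more than 2-fold lower in deletion library 2. Of all 76 tested genes that hold the full motif within 300 bases, 5 (6.58%) had such a gap, namely the 4 above and TIS11. Without the iron genes described here this was 1 of 69 (1.45%), and the median log2 ratio of deletion library 2 to library 1 over those 69 was 0.17, against -0.015 over all tested genes.

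**Figure D4:**
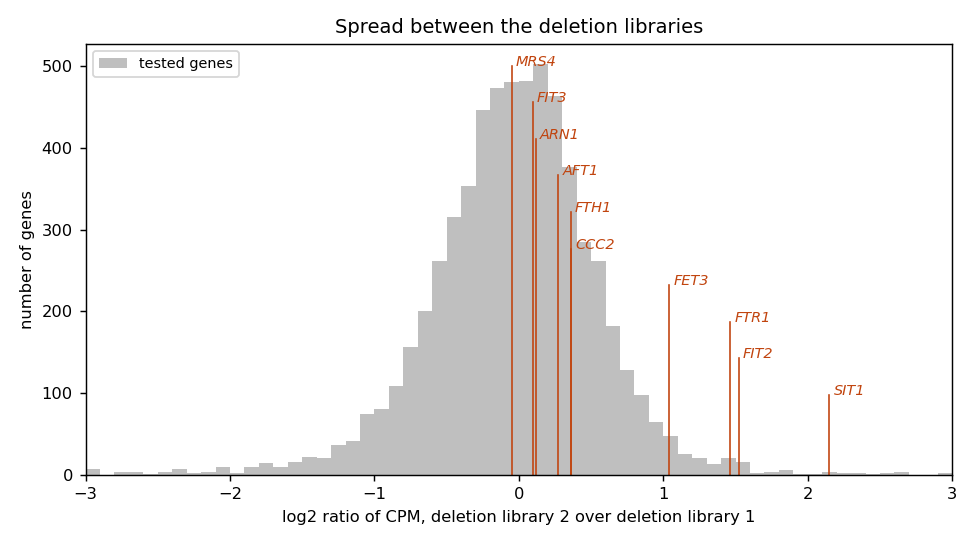
Histogram of the log2 ratio of CPM in deletion library 2 over deletion library 1 for the tested genes with a count in both (grey, number of genes, ratios beyond the axis drawn in the outermost bins), with red lines at the 10 iron genes. FET3, FTR1, FIT2 and SIT1 lie in the right tail and the other 6 in the centre.

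Levels were also compared between genes as CPM per kilobase of coding length. In the wild type the order was FTR1 (128 ± 0.62), FIT2 (116 ± 11.0), FIT3 (80.6 ± 9.30), FET3 (59.0 ± 5.35), MRS4 (52.3 ± 1.75), FTH1 (50.6 ± 0.917), AFT1 (24.1 ± 0.811), ARN1 (14.1 ± 0.367), SIT1 (9.92 ± 1.70) and CCC2 (5.12 ± 0.0537). MRS4 and FTH1 overlapped between libraries in this order, and the other neighbours did not. In the deletion, FIT2 (206 ± 141), MRS4 (184 ± 4.52), FTR1 (177 ± 117), FET3 (145 ± 71.1), FTH1 (132 ± 23.2) and FIT3 (105 ± 4.88) came before SIT1 (42.4 ± 37.8), AFT1 (33.1 ± 4.37), CCC2 (13.0 ± 2.30) and ARN1 (10.1 ± 0.579). There MRS4, FTH1 and FIT3 did not overlap with each other, while FIT2, FTR1 and FET3 each spanned at least one of them. SIT1, at 15.6 and 69.1 in deletion libraries 1 and 2, spanned AFT1, at 30.0 and 36.2. The ARN1 transcript was more abundant per length than CCC2 in the wild type and less abundant in the deletion.

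The paralogs and partners of these genes did not all follow them. MRS3, the paralog of MRS4 and like it a mitochondrial iron carrier, had 94.5 and 95.9 CPM in the deletion, against 87.7 and 97.6 CPM in the wild type (0.040 ± 0.16, edgeR adjusted p = 0.851, and -0.29 and -0.35 with library totals and upper quartile factors). MRS4 was counted 1.82 and 1.73 times as often as MRS3 in the deletion, against 0.533 and 0.502 times in the wild type, so the order of the pair was reversed between strains. MRS3 and MRS4 are 71.6% identical over 824 aligned bases, and no gene of the 10 has a copy at 90% identity over at least 50% of the shorter gene. FET5, the vacuolar partner of FTH1, rose by 0.60 ± 0.21 (edgeR adjusted p = 0.0446), with 72.4 and 99.2 CPM in the deletion and 59.6 and 53.8 CPM in the wild type. The change of FET5 was 0.35 without deletion library 2, and its call ended with library totals, upper quartile factors, TMM factors from other than ribosomal protein genes, a filter of 50 counts, and when either wild-type library was left out. AFT2, the paralog of AFT1, had 57.5 and 61.4 CPM in the deletion and 64.8 and 58.9 CPM in the wild type (-0.058 ± 0.17, edgeR adjusted p = 0.790).

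Among 9 other genes of surface uptake, 2 were lower, none was higher and 7 did not pass, with a median of -0.15. The share called lower is close to the 24.9% of all tested genes. FRE2, a ferric reductase gene, fell by 1.15 ± 0.29 (4.45 and 5.40 CPM in the deletion, against 9.82 and 12.2 CPM in the wild type, edgeR adjusted p = 0.0141). ARN2, a siderophore transporter gene and the nearest relative of ARN1, at 64.4% identity over 1332 bases, fell by 0.72 ± 0.21 (22.0 and 25.7 CPM in the deletion, against 43.3 and 35.5 CPM in the wild type, edgeR adjusted p = 0.0253). The call of FRE2 ended without wild-type library 2 and that of ARN2 when either wild-type library was left out. The reductase genes FRE1 (-0.33 ± 0.23), FRE3 (0.51 ± 0.27) and FRE4 (-0.15 ± 0.24), the cell wall gene FIT1 (0.22 ± 0.35), the enterobactin transporter gene ENB1 (-0.086 ± 0.17), the low-affinity iron transporter gene FET4 (0.33 ± 0.18) and the metal transporter gene SMF1 (-0.16 ± 0.23) did not pass. With upper quartile factors 4 of the 9 were lower, FRE1 and ENB1 being added, and FIT1 changed sign there and with library totals. FRE3 passed as higher without deletion library 1 (0.78, against 0.18 without deletion library 2), and without deletion library 2 FET4 passed as higher and SMF1 as lower.

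In the vacuole list of 4, CCC1, which encodes the importer that stores iron in the vacuole, rose by 0.77 ± 0.16 (173 and 184 CPM in the deletion, against 107 and 102 CPM in the wild type, edgeR adjusted p = 0.00724), as FET5 did. SMF3, the vacuolar iron exporter gene, did not pass (0.77 ± 0.34), with changes of 0.081 without deletion library 2 and 1.24 without deletion library 1, where it was called, as it was with DESeq2. The vacuolar reductase gene FRE6 did not pass (-0.041 ± 0.16). The list thus had 2 of 4 genes called higher, beside 26.9% of all tested genes. Neither CCC1 nor FET5 was called with library totals or upper quartile factors, or when either wild-type library was left out. Under TMM scaling, the genes of a vacuolar exporter (FTH1) and of the importer (CCC1) were both higher.

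Of the regulators and low-iron responders, 2 of 10 tested genes were higher and 3 lower, shares near the 26.9% and 24.9% of all tested genes. HMX1, the heme oxygenase gene that recovers iron from heme, rose by 2.38 ± 0.41, with 239 and 602 CPM in the deletion, against 79.8 and 81.5 CPM in the wild type (edgeR adjusted p = 0.00311). The change of HMX1 was 1.57 without deletion library 2 and 2.91 without deletion library 1, and it was called in both. VHT1, the biotin permease gene, fell by 1.78 ± 0.27, with 71.8 and 42.3 CPM in the deletion and 187 and 204 CPM in the wild type (edgeR adjusted p = 0.00186). Of the proteins known to restrain Aft1 when iron is sufficient, the glutaredoxin genes GRX3 and GRX4 fell by 0.56 ± 0.18 and by 0.80 ± 0.19, FRA1 rose by 0.82 ± 0.18, and FRA2 stayed above the threshold for p (-0.36 ± 0.18), although library totals, upper quartile factors or leaving out deletion library 1 gave a call as lower. The calls of GRX3, GRX4 and FRA1 ended when either wild-type library was left out, and that of FRA1 also under both of these scalings. TIS11, also called CTH2, which promotes decay of mRNAs of iron-using proteins, had 16.1 and 58.4 CPM in the deletion, against 16.0 and 18.2 CPM in the wild type. It did not pass (1.13 ± 0.52, edgeR adjusted p = 0.107), with -0.080 without deletion library 2, and was called with DESeq2 and without wild-type library 2 or deletion library 1. Its relative CTH1 did not pass (0.45 ± 0.17, edgeR adjusted p = 0.0554), but was called higher with limma-voom, with the authors' table and when either deletion library was left out. The transcription factor gene YAP5 (0.058 ± 0.21), which acts at high iron, did not pass either. LSO1 had 0 and 1 counts in the deletion and 8 and 5 in the wild type and was not tested. Leaving out a library changed how many regulators and responders were called, as it did over all tested genes.

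Of 18 genes of mitochondrial iron transport and iron-sulfur cluster assembly, 3 were higher, 3 lower and 12 did not pass, with a median of 0.16. Over all tested genes 26.9% were called higher and 24.9% lower, the shares to set beside each count in this paragraph. The copper genes called lower and the heme genes called higher were near those shares. MMT1 and MMT2, paralogs that encode mitochondrial metal transporters, moved apart. MMT2 rose by 1.55 ± 0.17 (109.9 and 124 CPM in the deletion, against 40.1 and 40.2 CPM in the wild type, edgeR adjusted p = 0.000607), and MMT1 fell by 2.14 ± 0.24 (6.18 and 5.71 CPM in the deletion, against 25.1 and 27.3 CPM in the wild type, edgeR adjusted p = 0.000617). ATM1, the mitochondrial exporter gene that links cluster assembly to Aft1, fell by 0.77 ± 0.17 (edgeR adjusted p = 0.00858), and its call ended when either wild-type library was left out. The number called in this list moved with the library left out, as it did over all tested genes. In cytosolic cluster assembly 3 of 8 fell, TAH18 by 1.02 ± 0.19, MET18 by 1.14 ± 0.26 and CFD1 by 0.60 ± 0.21, of which CFD1 (-0.38 without deletion library 2) was not called when either wild-type library was left out and MET18 not without wild-type library 2. Of the 7 copper genes measured, 2 fell, the copper chaperone gene ATX1, which delivers copper to Ccc2, by 0.66 ± 0.21 and the copper-regulated reductase gene FRE7 by 1.02 ± 0.32. Neither was called when either wild-type library was left out, nor FRE7 without deletion library 2, and the change of ATX1 was -0.41 without wild-type library 1. In heme synthesis 2 of 8 rose, HEM15, ferrochelatase, by 1.93 ± 0.17 and HEM1, the first enzyme, by 1.18 ± 0.21, and HEM13, the oxygen-dependent step, fell by 1.16 ± 0.18. HEM1 was not called without wild-type library 1. HEM15 had 286 and 292 CPM in the deletion, against 79.4 and 72.0 CPM in the wild type. The mitochondrial iron carrier gene MRS4 and the enzyme gene that inserts iron into heme were therefore both more than 3-fold higher with little spread between libraries.

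The genes whose profiles over the 4 libraries lay nearest to FET3 by Euclidean distance of centred log2 CPM were YOR343C (0.0759), PKH3 (0.122), a protein kinase gene, and UTH1 (0.141), a cell wall and mitochondrial protein gene. Nearest to FTH1 were CDC48 (0.0471), the gene of a ubiquitin-dependent ATPase, YLR294C (0.0481) and MDV1 (0.0614), a mitochondrial division gene. Over only 4 libraries, such likeness describes a shared pattern of high and low libraries and no more.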

How the data were processed

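Each of the 4 libraries has a deposited file of raw counts per gene, and the authors also gave a table of log10 values. When undone, these values were counts scaled by 1 constant per library, with 1 added before the logarithm. They served as an alternative, on the log2 scale with limma. The submitters' processing notes name FastQC, Subread, featureCounts and the build sacCer3. Counting settings such as strand: not given in the sources used here. None of the 10 genes overlaps another annotated gene. Names, positions and sequences came from RefSeq R64, the same S288C assembly, where 6047 of the files' identifiers had a systematic name. The count files carry no coordinates.

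Strains were compared with the quasi-likelihood test of edgeR 4.0.16 (R 4.3.3), a model with strain alone, filterByExpr (6197 genes kept, 930 removed), TMM factors and Benjamini-Hochberg adjustment over all genes tested, at 0.05. Each SE came from the change and its F statistic. The biological coefficient of variation was 17.8%. The script was tested on simulated data. Alternatives were DESeq2 1.42.0, the likelihood ratio test, limma-voom (limma 3.58.1), other scaling factors, other filters, a replicate block, the authors' table, and fits that left out 1 library. The genes, lists and alternatives were chosen with earlier results of these data known. Genes named were the 10, their paralogs and partners, all of the surface, vacuole and regulator lists, and up to 3 called genes with the smallest p of each other list. Copies were searched with blastn. Reads were amplified and carry no molecular identifiers, so floors cover counting error only.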

Additional observations from a re-analysis of the deposited data

How the results depend on the processing

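At the 0.05 threshold, the 5 genes called higher kept their direction under every alternative run, and all but SIT1 kept their call. SIT1 missed it with DESeq2 (2.11, adjusted p = 0.0599), limma-voom (1.77, 0.0521) and the authors' table (1.76, 0.0507). At an adjusted p below 0.01, 3 of the 10 were called. Leaving out each library gave 5 to 9 calls among the 10, with 7 higher and 2 lower (FTR1 and ARN1) without deletion library 2 and 9 higher without deletion library 1, and 1960 to 4460 among all genes. Where a deletion library is left out, the other is assumed to vary like the wild-type libraries. With each library of either strain left out in turn, the log2 fold changes ranged from -0.43 to 1.04 for FTR1 and -0.13 to 1.40 for FIT2. They ranged from 0.28 to 0.52 for FIT3, -0.54 to -0.41 for ARN1 and 0.32 to 0.60 for AFT1. Scaling mattered for FIT3 (-0.0071 with upper quartile factors) and ARN1 (-0.80, adjusted p = 0.019, with library totals and -0.87, adjusted p = 0.010, with upper quartile factors). Upper quartile factors and library totals also shrank the changes of AFT1 (0.067 and 0.14), FTR1 (0.079 and 0.17) and FIT2 (0.43 and 0.52). The cause of these changes was not tested.

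Calls in the related lists, each library left out in turn, ranged from 0 to 4 (surface), 0 to 3 (vacuole), 2 to 12 (mitochondrial), 1 to 4 (cytosolic clusters), 2 to 8 (regulators), 0 to 3 (copper) and 2 to 5 (heme). The surface list had 4 calls with upper quartile factors. The vacuole list had 0 with upper quartile factors and with library totals, and 1 with TMM factors from other than ribosomal protein genes and with a filter of 50 counts. Genes near 0 changed sign: with upper quartile factors and library totals FIT1 (-0.17 and -0.11), MRS3 (-0.35 and -0.29) and YAP5 (-0.34 and -0.28), and with upper quartile factors FET4 (-0.060). Leaving out libraries gave -0.40 to 0.062 for FRE4, -0.20 to 0.053 for ENB1, -0.44 to 0.079 for SMF1, -0.11 to 0.037 for FRE6, -0.030 to 0.13 for MRS3, -0.12 to 0.020 for AFT2, -0.115 to 0.27 for YAP5 and -0.080 to 1.79 for TIS11. The full motif was found in 7 of 10 genes also in a window of 600 bases, a width chosen after seeing the data.

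The labels give same-numbered libraries of the strains nothing in common but the number. The correlation of their deviations was -0.0659 across genes, and with 2 libraries a strain it cannot show whether they shared a batch. With the replicate block 3316 genes and 6 of the 10 were called. The added call was FIT2 (0.64, adjusted p = 0.0234), and among the related genes SMF3 and TIS11 gained calls and GRX3 lost its call (adjusted p = 0.0531).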
